A study of Mus musculus with 9 samples.

Results

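The genes of the mitochondrial ribosomal proteins were taken as the rows of the deposited expression table whose symbol was Mrpl or Mrps followed by a number and at most 1 letter. This gave 78 of the 55487 genes listed, 49 with Mrpl and 29 with Mrps symbols, after 6 pseudogene rows with names ending in -ps were left out. Their transcripts were followed by RNA-seq in CD4+ T cells that had been isolated by negative selection from spleens of wild-type C57BL/6 mice, females aged 6 to 7 weeks. The 9 libraries formed 3 groups of 3: cells kept in medium, cells stimulated for 24 h by Abs to CD3 (at 3 µg/ml) and CD28 (at 2 µg/ml), and cells given both Abs together with TRAIL (10 µg/ml) for 24 h. TRAIL is a ligand of the tumor necrosis factor superfamily, and the question was what TRAIL does to the transcripts of T cells activated through the TCR and CD28. All groups were wild type for TRAIL-R, TRAIL without the Abs was not analysed here, and the culture time of the medium group is not given in the sources used here. No source states that the libraries of a group came from separate mice, so p-values measure the spread between these libraries, which may be technical.

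Mitochondria hold a ribosome of their own that translates the few mRNAs of mitochondrial DNA, all of which encode subunits of the respiratory chain and the ATP synthase. Its protein subunits are encoded in the nucleus, made in the cytosol and imported: the Mrps proteins form mainly the small subunit, which reads the mRNA, and the Mrpl proteins the large subunit, which joins the amino acids. Some descend from bacterial ribosomal proteins and others occur only in mitochondria. T cells that leave the resting state grow and build mitochondrial mass before they divide.

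By their place in the ribosome, 30 members were bacterial-type and 21 mitochondria-specific proteins of the large subunit, and 16 were bacterial-type and 10 mitochondria-specific proteins of the small subunit. Mrps30 and Mrps18a were counted in the large subunit, where their proteins sit in spite of their names. The last member, Mrps36, carries the name of a small-subunit protein but is now known as a component of the 2-oxoglutarate dehydrogenase complex. All 78 were annotated as protein coding and lay on 17 chromosomes of GRCm38, with 11 members on chromosome 11, the largest number on any chromosome. Exon bases were shared with another gene by 33 members, and 9 shared over 20% of theirs with a single other gene. Mrpl53 shared 88.0% of its exon bases with a same-strand gene, Mrps25 shared 69.8% with Nr2c2 on the opposite strand, and Mrps34 shared 63.4% with Mapk8ip3 on the opposite strand. Whether reads were counted by strand is not given in the sources used here, so reads could be divided between such neighbours in either way.

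A promoter sequence (250 bases before to 50 after the RefSeq transcription start, GRCm38.p6) was matched by symbol for 69 of the 78 members. Both strands were searched for 6 motifs, with the share of genes holding a motif in any of their promoters. CCGGAAG, the core bound by ETS-family factors such as GABP, was found in 26 of the 69 members (37.7%), in 20.6% of the 9934 genes tested that had a promoter sequence and in 9.93% of all 27025 genes in the table. The E-box CACGTG, bound by Myc among others, was found in 5 members (7.25%) and in 11.8% of genes tested. GCGCATGCG, bound by NRF1, was found in 7 members (10.1%) and in 4.06% of genes tested, and its core GCATGCGC, which lies inside it, in 8 members (11.6%) and in 5.89%. AAGATGGCG, bound by YY1, was found in 8 members (11.6%) and in 3.61% of genes tested, and GGGGCGGGG, bound by SP1, in 13 members (18.8%) and in 23.9%. A match describes letters only and marks no binding site. The stretches below lie before the RefSeq start and were chosen after the values were seen. The first 5 belong to members that rose with stimulation by among the largest amounts, and the last 4 to Mrpl32, Mrpl9, Mrpl39 and Mrpl24. Of these, Mrpl32, Mrpl9 and Mrpl39 were the members with GCGCATGCG on both strands at overlapping positions, and Mrpl24 was the member that fell with stimulation at the adjusted p. The other members with GCGCATGCG were Mrpl10, Mrpl17, Mrpl22 and Mrps18b. Each is written 5′ to 3′ on the strand of its gene, with any of the 6 motifs in capitals, which run on where matches on both strands overlap. The shorter ones were kept short because they lie in an annotated exon.
Mrps6 (SP1 motif), chr16:92058206-92058265, + strand: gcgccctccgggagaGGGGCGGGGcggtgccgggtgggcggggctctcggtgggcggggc
Mrpl27 (ETS motif), chr11:94653723-94653752, + strand: ttgtccgcaagacCCGGAAGtagatctatc
Mrpl2 (SP1 motif, then E-box), chr17:46646041-46646100, + strand: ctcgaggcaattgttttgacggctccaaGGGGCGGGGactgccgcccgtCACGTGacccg
Mrps36 (SP1 motif), chr13:100744680-100744739, - strand: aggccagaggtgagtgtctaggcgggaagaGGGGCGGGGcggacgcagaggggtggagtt
Mrpl12 (none of the 6), chr11:120484553-120484612, + strand: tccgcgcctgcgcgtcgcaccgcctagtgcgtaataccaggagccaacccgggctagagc
Mrpl32 (NRF1 motif), chr13:14613105-14613134, - strand: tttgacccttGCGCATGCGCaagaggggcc
Mrpl9 (NRF1 motif), chr3:94443258-94443317, + strand: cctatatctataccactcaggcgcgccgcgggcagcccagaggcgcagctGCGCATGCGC
Mrpl39 (NRF1 motif), chr16:84735349-84735378, - strand: aggagaggcGCGCATGCGCccccgcgtggc
Mrpl24 (none of the 6), chr3:87919444-87919503, + strand: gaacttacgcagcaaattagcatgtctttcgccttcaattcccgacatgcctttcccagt

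The deposited values are TPM, a measure of abundance per transcript length in which all libraries have the same total. TPM holds no read totals, so depth and counting error are unknown. The libraries did not hold T cells alone. The 10 T cell markers summed to 5241 to 5325 TPM in medium, 4212 to 4699 TPM after stimulation and 5059 to 5390 TPM with TRAIL. The 10 B cell markers summed to 6540 to 7195 TPM in medium, 732 to 801 TPM after stimulation and 3212 to 3714 TPM with TRAIL. Stimulated libraries were thus the lowest in both, by far more in the B cell markers. The 12 myeloid markers summed to 2205 to 2462, 62.0 to 76.8 and 1628 to 1868 TPM in the same order of groups. The 7 erythroid markers summed to 2137 to 2585, 24.8 to 39.6 and 619 to 669 TPM, with Slc4a1 at the lowest value of the table in every stimulated library. The 6 markers of CD8 T cells and NK cells summed to 256 to 296, 130 to 140 and 104 to 112 TPM. Of these 6, 3 were called lower and 0 higher with stimulation, beside 19.5% and 12.4% of all genes tested. With TRAIL added 2 were called higher and 1 lower, beside 16.6% and 14.3% of all genes tested, so they did not move together. All B cell, myeloid and erythroid markers were called lower with stimulation and higher with TRAIL added, the opposite direction to most members. Their part in the results on the members was not tested.

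As a whole, the transcripts of the mitochondrial ribosomal proteins took a larger share of the RNA after stimulation, and a share close to that in medium when TRAIL was present. The 78 members summed to 2579 ± 198 TPM (SD, n = 3) in medium, with libraries between 2351 and 2710 TPM. They summed to 4542 ± 387 TPM (SD, n = 3) in stimulated cells, with libraries between 4256 and 4982 TPM, and to 2279 ± 27.3 TPM (SD, n = 3) with TRAIL, with libraries between 2254 and 2308 TPM. Every stimulated library lay above all 6 others, and the mean of the stimulated group was 1.76 times that of medium and 1.99 times that of the TRAIL group. In these bulk samples, fewer cells of a type and less RNA per cell cannot be told apart. Stimulated replicate 1 was the highest of its group for 66 of the 78 members, against 27.9% of all genes tested, and medium replicate 2 was the lowest of its group for 52 members, against 32.5% of all genes tested.

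**Figure D1:**
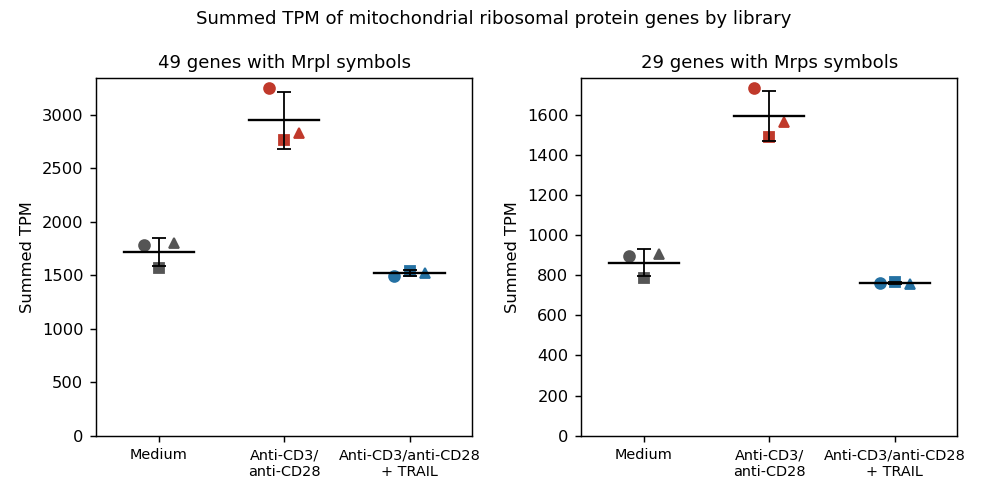
Summed TPM of the members with Mrpl symbols (left) and Mrps symbols (right) in each library, with circles, squares and triangles for replicates 1, 2 and 3, lines for the mean and bars for the SD (n = 3). The stimulated libraries lie between 2766 and 3251 TPM on the left and between 1491 and 1732 TPM on the right, above all libraries of the other groups.

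The sums of both groups of symbols were higher in stimulated cells. The members with Mrpl symbols summed to 1717 ± 131 TPM in medium, 2947 ± 264 TPM after stimulation and 1519 ± 25.9 TPM with TRAIL (SD, n = 3 each). Those with Mrps symbols summed to 862 ± 67.2, 1595 ± 124 and 760 ± 5.13 TPM (SD, n = 3 each). The ratio of summed Mrpl to summed Mrps TPM was 1.99, 2.00 and 1.99 in the medium libraries, 1.88, 1.86 and 1.81 in the stimulated libraries and 1.96, 2.02 and 2.02 with TRAIL. The stimulated libraries lay below all others in this ratio, which was not put to a test.

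Single members spanned 2.27 to 206 TPM in a library, and none was at the lowest value of the table in any library. The median of the members' group means was 28.8 TPM in medium, 53.3 TPM in stimulated cells and 23.6 TPM with TRAIL. The highest mean over all libraries belonged to Mrpl24, at 176 TPM, followed by Mrpl52 at 87.2 TPM and Mrps15 at 83.3 TPM. The lowest belonged to Mrps25, Mrpl17 and Mrpl53, at 9.11, 6.67 and 5.29 TPM. Mrpl24 was the highest of the 78 in each group and did not overlap with the next in any of them by replicate, whereas Mrpl53 and Mrpl17, the lowest in each group, overlapped in every group.

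Groups were compared with limma on log2(TPM + 1) over 15536 genes, those that reached 1 TPM in 3 or more libraries. All 78 members did so. Each p was adjusted over all of these genes by the Benjamini-Hochberg method. A gene was called changed at an adjusted p under 0.05 and a log2 difference of at least 1 in size, that is 2-fold on this scale. Stimulation raised 28 of the 78 members by this rule and lowered 0. Over all genes tested, 12.4% were called higher and 19.5% lower. With a pseudocount of 5 in place of 1, 17 members were called higher, and 15 of the 28 were called under every alternative tried. At the adjusted p alone, 70 members were higher and 1, Mrpl24, was lower, against 28.8% and 40% of all genes tested. The counts at an unadjusted p under 0.05 were 72 and 1, against 29.9% and 41.4% of all genes tested. All 3 stimulated libraries lay above all 3 medium libraries for 70 members, against 29.9% of all genes tested. The log2 difference had a median of 0.87 over the members (middle range 0.52 to 1.14, all from -0.32 to 2.53) and of -0.15 over all genes tested, a gap of 1.02. Another scaling of the libraries moved the median of all genes by 0.14 (median of ratios) or 0.19 (quantile) and left the gap at 1.02 or 0.92.

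**Figure D2:**
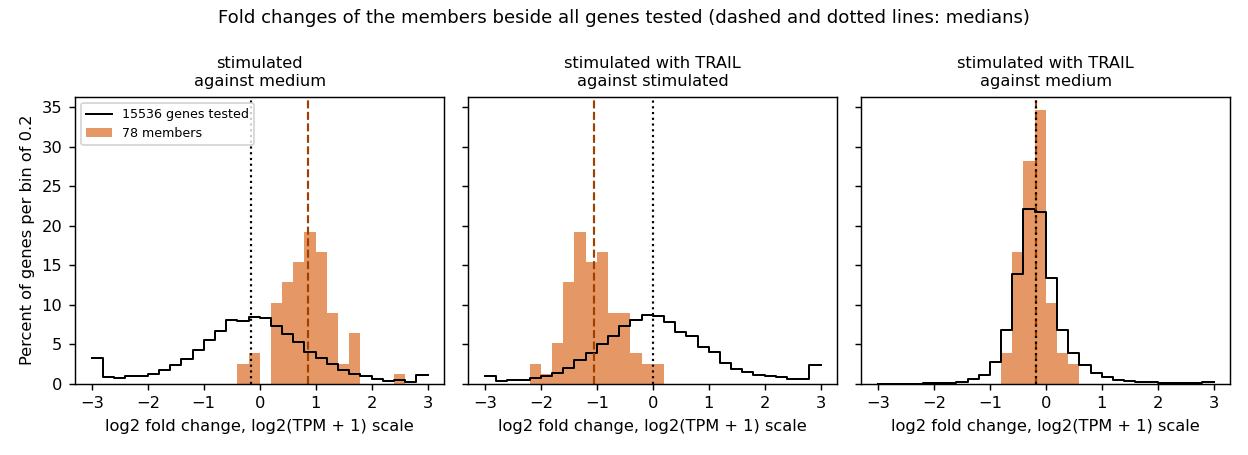
Percent of the 78 members (bars) and of the 15536 genes tested (black line) in each bin of 0.2 of the log2 difference on the log2(TPM + 1) scale, for the 3 comparisons, with values beyond 3 in size placed in the end bins. Medians (dashed for members, dotted for all genes) are 0.87 and -0.15 on the left, -1.05 and 0.01 in the middle, and -0.18 for both on the right.

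The largest rise was that of Mrps6, a bacterial-type protein of the small subunit. Mrps6 stood at 14.9, 11.0 and 17.2 TPM in medium, at 98.5, 78.2 and 84.2 TPM after stimulation, and at 21.4, 22.8 and 18.3 TPM with TRAIL. The stimulated libraries were far above the rest and the TRAIL libraries just above those in medium. Its log2 difference with stimulation was 2.53 ± 0.16 (SE), with an adjusted p of 3.1e-07 in limma. Exon bases of Mrps6 are shared on the same strand with Gm49711 (19.9%), which was at most 0.0357 TPM in the mean of a group. They are also shared on that strand with Slc5a3 (10.4%), which was at 3.49, 9.88 and 6.08 TPM in the means of the 3 groups.

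Among the Mrpl genes, the largest rises were those of Mrpl27 and Mrpl2. Mrpl27, whose bacterial homolog reaches toward the site where peptide bonds form, stood at 14.3, 16.4 and 15.3 TPM in medium and at 58.6, 49.8 and 54.1 TPM after stimulation. Mrpl2, a core protein of the same region, stood at 29.2, 29.7 and 30.1 TPM in medium and at 106, 96.2 and 97.5 TPM after stimulation. Neither gene had overlapping groups, and the log2 differences were 1.75 ± 0.11 and 1.72 ± 0.098 (SE), with limma adjusted p of 2.0e-07 and 1.3e-07. Mrpl12, the stalk protein that draws translation factors to the ribosome, stood at 43.3, 38.2 and 48.2 TPM in medium and at 148, 119 and 122 TPM after stimulation. That was a log2 difference of 1.56 ± 0.12 (SE, limma adjusted p = 1.1e-06), and Mrpl12 moved from rank 16 among the members in medium to rank 3. Mrpl15 (1.64) and Mrpl42 (1.61), a bacterial-type and a mitochondria-specific protein of the large subunit, and Mrpl17 (1.34), near the exit of the peptide tunnel in bacteria and at 0.91 with a pseudocount of 5, completed the 6 largest called rises in log2 units among the Mrpl genes.

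In the small subunit, Mrps6 was followed by Mrps12 (log2 difference 1.41), a protein of the decoding site, Mrps10 (1.36), Mrps34 (1.35) and Mrps28 (1.34). Mrps36, of the 2-oxoglutarate dehydrogenase complex, rose by as much: it stood at 11.8, 12.2 and 14.1 TPM in medium, at 51.5, 40.3 and 38.0 TPM after stimulation and at 10.3, 15.2 and 12.2 TPM with TRAIL. The stimulated libraries did not overlap with the others, and the log2 difference with stimulation was 1.68 ± 0.16 (SE, limma adjusted p = 6.1e-06). The paralogs Mrps18a, Mrps18b and Mrps18c, which sit in different places of the ribosome, rose by 1.09, 1.14 and 1.07 on the log2 scale. Mrps18a (0.99) and Mrps18c (0.94) were not called with a pseudocount of 5. Mrps18c also lost its call without medium replicate 2, with a log2 difference of 0.92, and without stimulated replicate 1, with 0.85. Mrps30 and Mrpl58, the latter related to release factors and able to free stalled peptides, passed the adjusted p with log2 differences of only 0.42 and 0.34.

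The rise was spread over all classes of subunit. Called higher with stimulation were 11 of the 30 bacterial-type and 7 of the 21 mitochondria-specific genes of the large subunit, and 5 of the 16 and 4 of the 10 of the small subunit, beside 12.4% of all genes tested. The medians of the log2 difference in these classes were 0.88, 0.86, 0.69 and 0.88. Among the 45 members that share no exon base with another gene, 17 were called higher and 0 lower, with a median of 0.89. When medium replicate 2 and stimulated replicate 1 were both left out, a choice made after the data were seen, 22 of the 78 members were called higher and the median log2 difference was 0.71.

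The 5 members with a log2 difference below 0 were Mrpl24, Mrpl32, Mrpl49, Mrpl37 and Mrps17. Mrpl24, which in bacteria starts the folding of the large subunit, stood at 206, 194 and 202 TPM in medium, at 167, 160 and 154 TPM after stimulation and at 173, 162 and 164 TPM with TRAIL. Medium libraries were the highest, and the stimulated and TRAIL libraries overlapped. The log2 difference with stimulation was -0.32 ± 0.079 (SE, limma adjusted p = 0.0045), which did not reach 2-fold. Mrpl24 shares 26.3% of its exon bases with Rrnad1 on the opposite strand, which was at 30.9, 19.4 and 23.1 TPM in the means of the 3 groups. Mrpl32, the substrate that a protease of the inner membrane must cut before the ribosome can assemble, stood at 33.7, 17.5 and 29.6 TPM in medium, 25.7, 19.4 and 20.9 TPM after stimulation and 20.6, 26.4 and 28.8 TPM with TRAIL. All 3 groups overlapped. For Mrpl32, Mrpl49, Mrpl37 and Mrps17 the log2 differences with stimulation were -0.24, -0.08, -0.03 and -0.01, with limma adjusted p of 0.37, 0.55, 0.82 and 0.97.

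**Figure D3:**
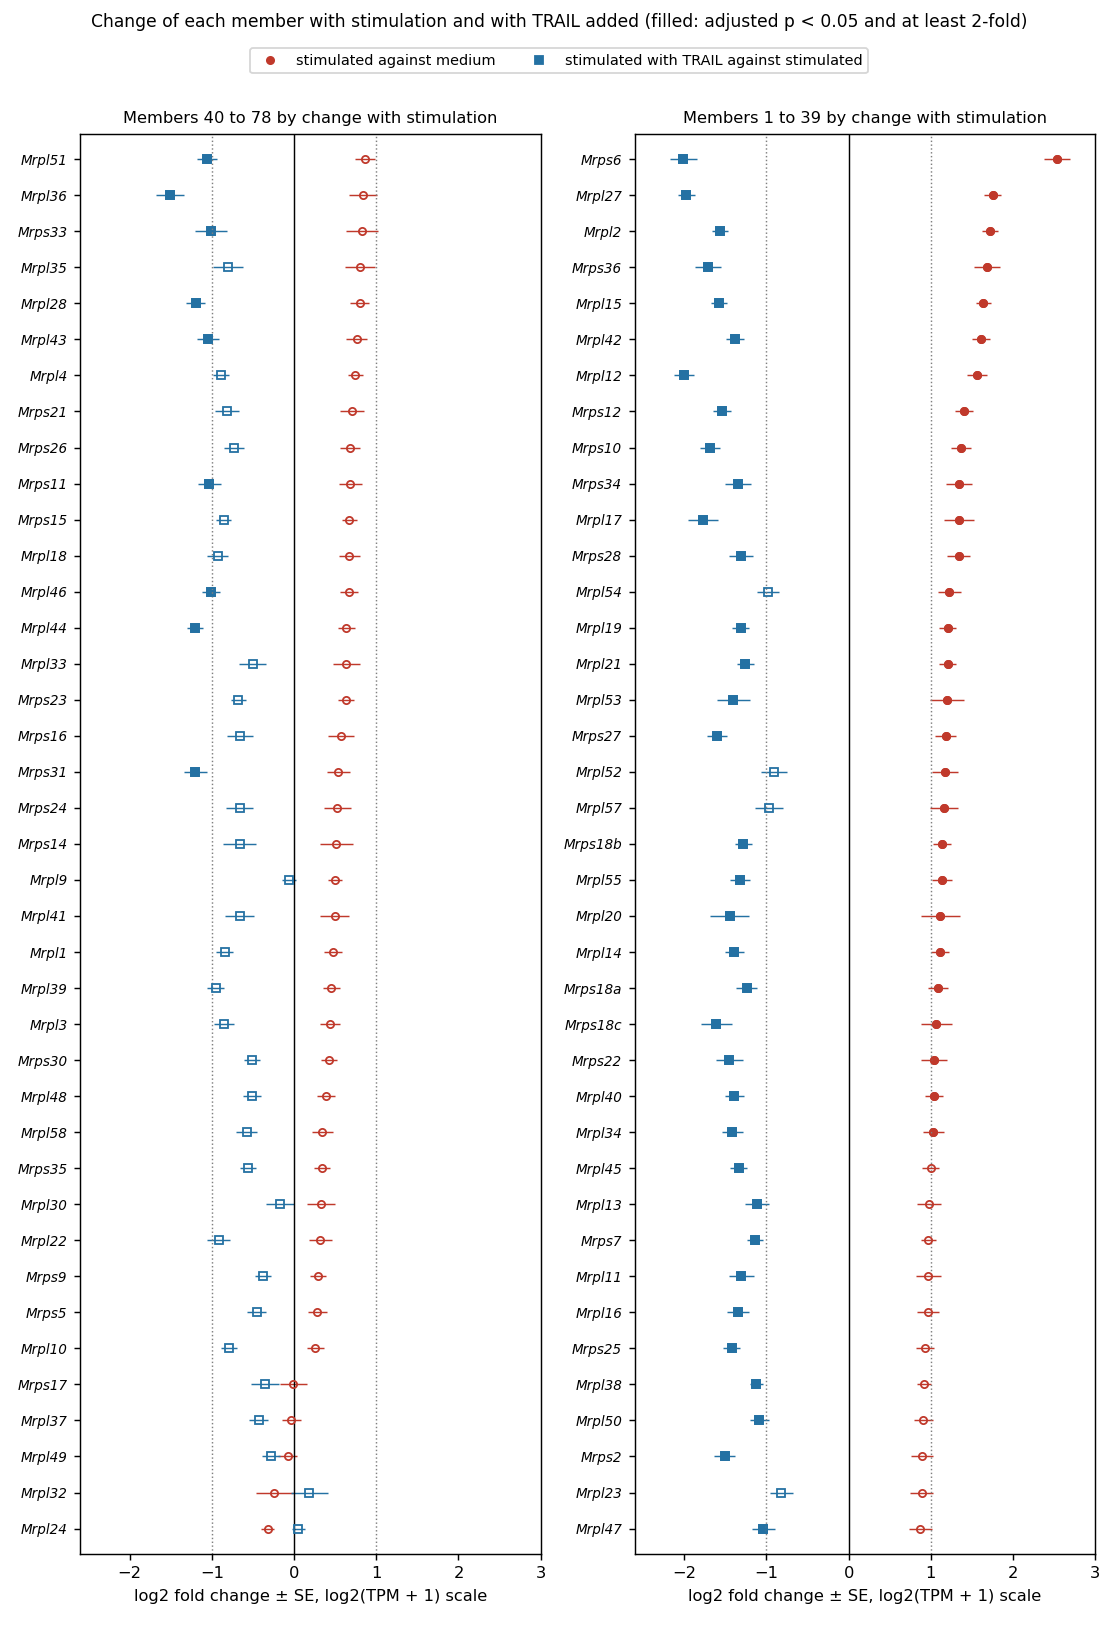
Log2 difference ± SE of each of the 78 members on the log2(TPM + 1) scale, for stimulated against medium (circles) and for stimulated with TRAIL against stimulated (squares), ordered by the first. Filled symbols passed the adjusted p and the 2-fold threshold, which were 28 circles, all to the right of 0, and 44 squares, all to the left.

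With TRAIL present during stimulation, the members stood well below stimulated cells without TRAIL. Of the 78, 44 were called lower and 0 higher, while 14.3% of all genes tested were called lower and 16.6% higher. At the adjusted p alone 73 members were lower and 0 higher, against 33.5% in each direction (67.1% in all) over all genes tested. The counts at an unadjusted p under 0.05 were 73 and 0 as well, against 34.9% lower and 35.1% higher over all genes tested. All 3 TRAIL libraries lay below all 3 stimulated libraries for 74 members, against 34.9% of all genes tested. The median log2 difference was -1.05 (all from -2.01 to 0.19) over the members and 0.01 over all genes tested. By class, 17 of the 30 bacterial-type and 11 of the 21 mitochondria-specific genes of the large subunit were called lower, as were 8 of the 16 and 7 of the 10 of the small subunit. Since this comparison and the one with medium share the stimulated libraries, a high value there moves both, and the values of each are given side by side without a test between them.

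The largest differences were those of Mrps6 and Mrpl12, at -2.01 ± 0.16 and -2.0 ± 0.12 (SE) on the log2 scale, with limma adjusted p of 1.8e-06 and 2.0e-07. Mrpl12 stood at 30.7, 30.2 and 33.6 TPM with TRAIL, below all stimulated and all medium libraries. Mrpl27 stood at 11.9, 13.5 and 13.7 TPM with TRAIL, a log2 difference of -1.97 ± 0.11 (SE, limma adjusted p = 9.6e-08) from stimulated cells. Mrpl17 (-1.77), Mrpl15 (-1.58), Mrpl2 (-1.57) and Mrpl36 (-1.5) followed among the Mrpl genes in log2 units. Among the Mrps genes these were Mrps36 (-1.71), Mrps10 (-1.69), Mrps18c (-1.61), Mrps27 (-1.60), an RNA-binding protein with pentatricopeptide repeats, and Mrps12 (-1.54). Mrpl36, among the smallest proteins of the large subunit, stood at 75.9, 53.3 and 54.5 TPM in stimulated cells and at 22.5, 20.6 and 19.0 TPM with TRAIL.

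Among the members called higher with stimulation, the mitochondria-specific large-subunit genes Mrpl52, Mrpl54 and Mrpl57 were not called with TRAIL. Their log2 differences with TRAIL were -0.91, -0.98 and -0.96, just short of 2-fold, and a difference between the comparisons was not tested. Mrpl52 stood at 50.9, 51.7 and 74.1 TPM in medium, at 153, 123 and 122 TPM after stimulation and at 64.9, 69.7 and 75.4 TPM with TRAIL. For 69 of the 78 members, every stimulated library was above all 6 others, and the same held for 26.2% of all genes tested.

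The members that did not follow the rest were few. The 2 with a log2 difference above 0 with TRAIL were Mrpl32 (0.19) and Mrpl24 (0.05), with limma adjusted p of 0.48 and 0.57. Mrps17 (-0.35) and Mrpl30 (-0.17) were below 0, with limma adjusted p of 0.087 and 0.40. Mrpl30 was named after its values were seen. Mrpl9, a bacterial-type protein of the large subunit, stood at 52.8, 56.9 and 55.7 TPM in medium, at 83.9, 75.1 and 75.5 TPM after stimulation and at 74.2, 74.8 and 76.0 TPM with TRAIL. The stimulated and TRAIL libraries overlapped and both lay above medium. Its log2 difference was 0.50 ± 0.084 (SE, limma adjusted p = 4.3e-04) with stimulation and -0.06 ± 0.084 (SE, limma adjusted p = 0.56) with TRAIL added.

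The members were also set side by side by the motifs in their promoters. For the 7 members with GCGCATGCG, which include Mrpl9 and Mrpl32, the log2 difference with stimulation ran from -0.24 to 1.34 (Mrpl17) with a median of 0.45, beside 0.85 for the other 62 with a promoter sequence. With TRAIL the medians were -0.92 and -1.05. With and without the ETS motif (26 and 43 members), the medians were 0.95 and 0.80 with stimulation and -1.03 and -1.04 with TRAIL. They were 1.07 and 0.80, and -1.5 and -1.02, with and without the E-box (5 and 64 members), and 1.04 and 0.78, and -1.28 and -1.02, for the SP1 motif (13 and 56 members). For the YY1 motif (8 and 61 members) they were 0.82 and 0.83, and -1.14 and -1.04. No test of these differences was made.

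**Figure D4:**
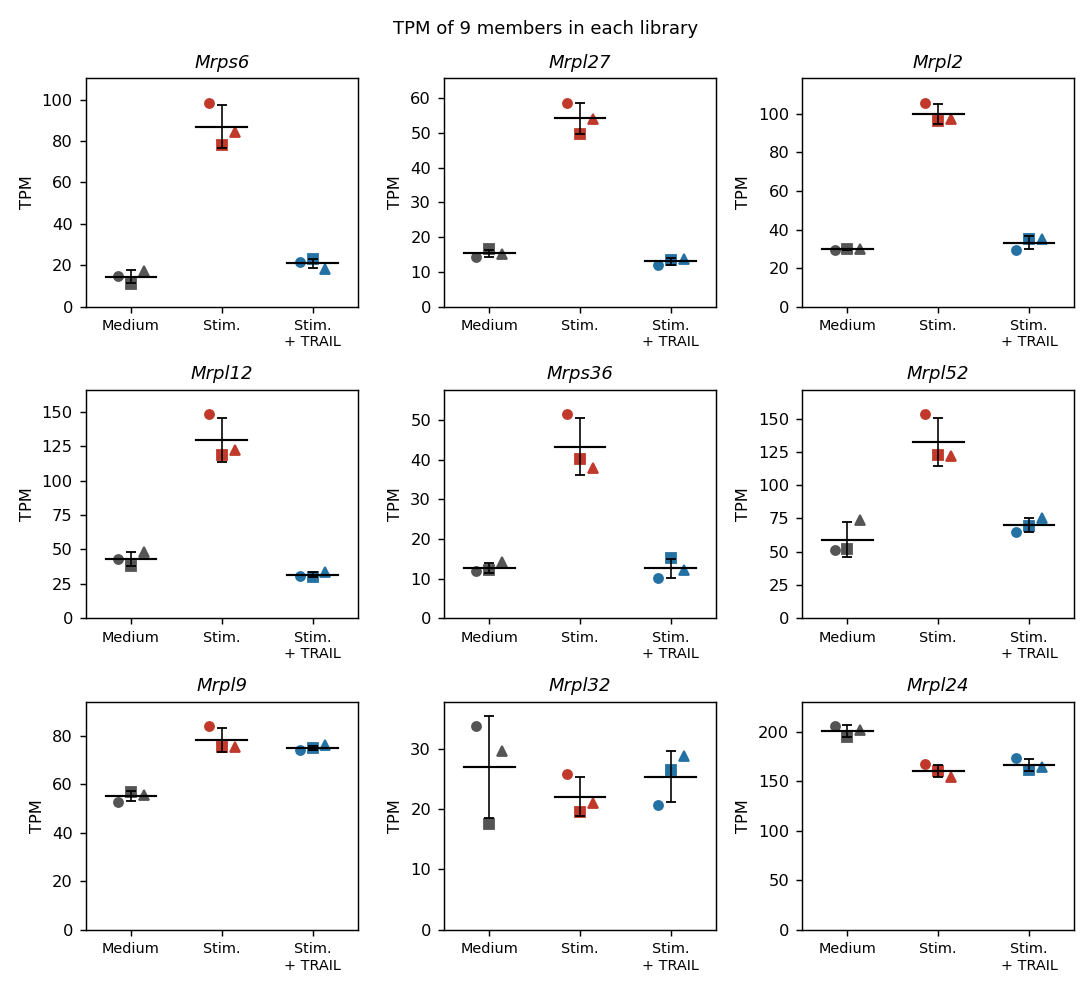
TPM of 9 members in each library, with circles, squares and triangles for replicates 1, 2 and 3, lines for the mean and bars for the SD (n = 3). In Mrps6, Mrpl27, Mrpl2, Mrpl12, Mrps36 and Mrpl52 the stimulated libraries stand apart from all others, in Mrpl9 only medium stands apart, in Mrpl32 all groups overlap, and in Mrpl24 medium is highest (194 to 206 TPM).

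Against medium, cells stimulated in the presence of TRAIL had 0 members called in either direction, while 2.49% of all genes tested were called higher and 2.13% lower. At the adjusted p alone 2 members were higher and 20 lower, against 8.03% and 24.6% of all genes tested. The counts at an unadjusted p under 0.05 were 2 and 30, against 10.7% and 33.3% of all genes tested. The median log2 difference was -0.18 over the members and also -0.18 over all genes tested. These directions depended on how the libraries were scaled: 13 members were above 0 and 65 below in TPM, 35 and 43 after median-of-ratios scaling, and 37 and 41 after quantile normalization. Of the 15536 genes tested, 4721 were above 0 and 10806 below in TPM. At the adjusted p alone, median-of-ratios scaling gave 2 members higher and 5 lower, against 12.1% and 14.1% of all genes tested. Quantile normalization gave 3 members higher and 7 lower, against 11.97% and 16.2% of all genes tested. The summed TPM of the members was likewise lower with TRAIL than in medium in the deposited values, and 2378 against 2367 after median-of-ratios scaling.

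The 10 members with the smallest adjusted p in this comparison were Mrpl44, Mrpl10, Mrpl9, Mrpl39, Mrps2, Mrps31, Mrps25, Mrpl22, Mrpl36 and Mrpl37. Mrpl44, a mitochondria-specific protein related to RNase III, stood at 26.2, 22.0 and 22.0 TPM in medium and at 15.2, 15.7 and 15.4 TPM with TRAIL, a log2 difference of -0.57 ± 0.10 (SE, limma adjusted p = 0.0027). Mrpl10, at the base of the stalk, stood at 38.2, 42.3 and 42.6 TPM in medium and at 29.1, 29.5 and 25.5 TPM with TRAIL, a log2 difference of -0.53 (limma adjusted p = 0.0038). In neither did the groups overlap. Mrpl9 was higher with TRAIL than in medium by 0.44 on the log2 scale (limma adjusted p = 0.0040), and Mrps6 by 0.52 (limma adjusted p = 0.032), the only members higher at the adjusted p alone. Other members above 0 in TPM were led by Mrpl52 (0.26), Mrpl54 (0.25), Mrpl42 (0.23) and Mrpl57 (0.20), with limma adjusted p of 0.22, 0.18, 0.13 and 0.40.

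The other parts of mitochondrial translation are described by the same calls, to be read against the shares of all genes tested: 12.4% called higher and 19.5% lower with stimulation, and 16.6% higher and 14.3% lower with TRAIL. At the adjusted p alone these shares were 28.8% and 40% with stimulation and 33.5% in each direction with TRAIL. Of 5 ribosomal proteins with other names, Gadd45gip1 (1.59) and Chchd1 (1.41) were called higher in log2 units, whereas Aurkaip1 (0.48) and Dap3 (0.40), the latter a GTP-binding protein of the small subunit, passed the adjusted p alone and Ptcd3 (0.18, limma adjusted p = 0.15) did not. All 5 were lower with TRAIL at the adjusted p, which 33.5% of all genes tested were, and Gadd45gip1 (-2.02) and Chchd1 (-1.47) were called. Of 14 translation factors, 2 (14.3%) were called higher with stimulation, a share near that of all genes, and 0 lower: Tsfm, the exchange factor of the elongation factor Tufm, and Gfm1, which moves the ribosome along the mRNA. Tsfm stood at 15.1, 19.0 and 15.6 TPM in medium, at 48.3, 47.2 and 46.8 TPM after stimulation and at 11.1, 10.9 and 10.5 TPM with TRAIL, with no overlap between any groups. Tsfm (-2.04), Gfm1 (-1.48) and Tufm (-1.45) were called lower with TRAIL. At the adjusted p alone, 5 of the 14 were higher with stimulation and 5 lower, beside 28.8% and 40% of all genes tested. The higher ones were Tsfm (1.47), Gfm1 (1.19), Tufm (0.87), the recycling factor Mrrf (0.82) and the initiation factor Mtif2 (0.54). The lower ones were the initiation factor Mtif3 (-0.60), the release factor Mtrf1l (-0.56), the insertase Oxa1l (-0.56), Mtfmt (-0.33), which formylates the initiator tRNA, and Guf1 (-0.23). With TRAIL, Oxa1l was higher at the adjusted p alone (0.45), and Mtrf1l was at 0.10 with a limma adjusted p of 0.52. Mrrf, Mtif2, Mtfmt and Guf1 were named after their values were seen.

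Of 25 genes of ribosome assembly, Rcc1l (1.00) was called higher with stimulation, with Noa1 (0.76) next at the adjusted p alone, and Mettl17 (-1.18) lower in log2 units, and 5 were called lower with TRAIL, led by the helicase Ddx28 (-1.38) and the GTPase Noa1 (-1.16). Mettl17, a factor of the small subunit, stood at 55.8, 54.5 and 60.2 TPM in medium, at 24.0, 24.3 and 25.4 TPM after stimulation and at 40.7, 42.8 and 34.1 TPM with TRAIL. It thus went against the members, with the lowest values in the stimulated libraries, and was higher with TRAIL (0.65) at the adjusted p alone. At the adjusted p alone 9 of the 25 assembly genes were higher with stimulation and 4 lower, against 28.8% and 40% of all genes tested. Mterf3 (-0.38) was lower with stimulation at the adjusted p alone, and Rpusd4 was at 0.14 with TRAIL with a limma adjusted p of 0.19. Of 17 mitochondrial tRNA synthetases 0 were called in either direction with stimulation, while 4 passed the adjusted p upward, led by Yars2 (0.93) and Rars2 (0.68), and 4 downward, led by Ears2 (-0.57) and Mars2 (-0.50), against 28.8% and 40% of all genes tested. With TRAIL, Rars2 (-1.31), Pars2 (-1.23) and Yars2 (-1.16), which charge arginine, proline and tyrosine tRNAs, were called lower. At the adjusted p alone 7 of the 17 were lower with TRAIL and 2 higher, Fars2 (0.46) and Hars2 (0.45), which charge phenylalanine and histidine tRNAs. Of 9 genes of mitochondrial transcription and mRNA stability 0 were called with stimulation, and 3 were called lower with TRAIL: the elongation factor Tefm (-1.32) and the partners Lrpprc (-1.15) and Slirp (-1.15), which keep mitochondrial mRNAs stable. With stimulation 3 of the 9, Slirp (0.95), Lrpprc (0.81) and Tefm (0.54), were higher at the adjusted p alone and 1 was lower, against 28.8% and 40% of all genes tested. Tfb2m, which opens the promoters of mitochondrial DNA, was lower with stimulation (-0.36) and higher with TRAIL (0.78) at the adjusted p alone. Mterf1a was at -0.36 with stimulation, with a limma adjusted p of 0.071, and lower with TRAIL (-0.73) at the adjusted p alone. The median log2 difference with stimulation was 0.02 for the translation factors, 0.19 for assembly, 0.10 for the synthetases and 0.05 for transcription and mRNA stability, beside 0.87 for the members. With TRAIL these medians were -0.65, -0.64, -0.22 and -0.51, beside -1.05 for the members. Lower with TRAIL at the adjusted p alone were 8 of the 14 translation factors, 17 of the 25 assembly genes and 6 of the 9 genes of transcription and mRNA stability, beside 33.5% of all genes tested. Many of these genes are low, and with a pseudocount of 5, a setting added after the data were seen, the genes called lower with TRAIL were 1 of assembly (Ddx28), 1 of the synthetases (Rars2) and 1 of transcription and mRNA stability (Lrpprc), and Rcc1l (0.82) was no longer called higher with stimulation. The calls lost with TRAIL were then at -0.99 (Noa1), -0.99 (Yars2), -0.91 (Tefm), -0.88 (Ngrn), -0.87 (Mtg1), -0.81 (Slirp), -0.78 (Pars2) and -0.46 (Ybey) in log2 units. Ngrn, Mtg1 and Ybey were named after their values were seen.

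Among 9 regulators of mitochondrial biogenesis, 8 passed the filter and 1, Myc, was called higher with stimulation, a share near the 12.4% of all genes tested. Myc stood at 124, 149 and 152 TPM in medium, at 596, 715 and 650 TPM after stimulation and at 223, 185 and 181 TPM with TRAIL, so that no groups overlapped. Its log2 difference was 2.20 ± 0.12 (SE, limma adjusted p = 1.0e-07) with stimulation and -1.73 ± 0.12 (SE, limma adjusted p = 6.3e-07) with TRAIL added. Pprc1, a coactivator of the PGC-1 family, had a log2 difference of 0.81 with stimulation, at the adjusted p alone, and was called lower with TRAIL (-1.35). Gabpb1, a subunit of GABP, rose by 0.73 at the adjusted p alone, while Gabpa (-0.05) and Yy1 (-0.09), with limma adjusted p of 0.75 and 0.50, did not pass it. Nrf1 and Esrra were lower by 0.37 and 0.35 at the adjusted p alone, Ppargc1b (-0.45) had a limma adjusted p of 0.078, and Ppargc1a was at most 0.628 TPM in any library and was not tested. With TRAIL, Ppargc1b was higher (0.93) and Gabpb1 (-0.48) and Gabpa (-0.38) were lower at the adjusted p alone. Nrf1 (0.33), Yy1 (0.09) and Esrra (0.01) had limma adjusted p of 0.057, 0.52 and 0.95.

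The counts of other genes of the ribosome and the respiratory chain are given beside those of the members, of which 35.9% were called higher with stimulation and 56.4% lower with TRAIL. Of 75 nuclear-encoded subunits of oxidative phosphorylation, 27 (36.0%) were called higher and 1 lower with stimulation and 29 (38.7%) lower and 1 higher with TRAIL, with medians of 0.79 and -0.89 in log2 units. With a pseudocount of 5, 23 of the 75 were called higher with stimulation and 24 lower with TRAIL. Of the 82 cytosolic ribosomal protein genes tested, 6 were called higher and 0 lower with stimulation and 2 lower and 0 higher with TRAIL, with medians of 0.36 and 0.02. Over all genes tested, 12.4% were called higher with stimulation and 14.3% lower with TRAIL, above the 7.32% and 2.44% of the cytosolic genes. The 13 mRNAs of mitochondrial DNA, which the ribosome of the members translates, had 0 called higher and 4 (30.8%) lower with stimulation and 3 (23.1%) higher and 0 lower with TRAIL, beside 19.5% and 16.6% of all genes tested, with medians of -0.61 and 0.73. With a pseudocount of 5, 4 of the 13 were called lower with stimulation and 2 higher with TRAIL. Their summed TPM was 95361 ± 8016 in medium, 52844 ± 1337 after stimulation and 93989 ± 9340 with TRAIL (SD, n = 3 each). The stimulated libraries lay below all others, while those of the members lay above all others. No test of the difference between these lists was made.

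**Figure D5:**
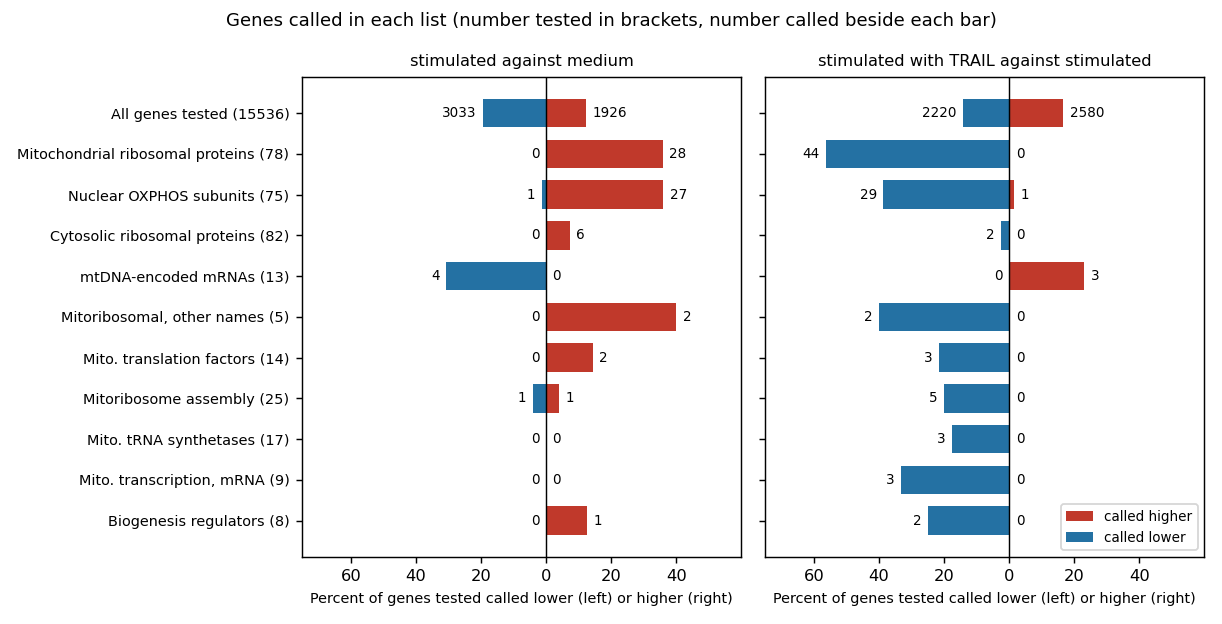
Percent of the genes tested in each list that were called lower (to the left) or higher (to the right) for stimulated against medium and for stimulated with TRAIL against stimulated, with the number of genes tested in brackets and the number called beside each bar. The members had 28 called higher on the left panel and 44 called lower on the right panel, beside 1926 and 2220 of the 15536 genes tested.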

How the data were processed

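The deposited table, made by the authors, holds TPM values per gene for the 9 libraries. According to the study's methods and the submitters' processing notes, reads were trimmed with Trimmomatic 0.36 and aligned with HISAT2 2.1.0. The notes also name SAMtools 1.2, StringTie 2.1.2 and DESeq2. The methods name GRCm38, the notes a human build. The mouse annotation GENCODE M21 held 55141 of the rows, and the GRCm38 locus was the same for 99.4% of these and for all 78 members. A value of 0.0001 TPM stands for 0.

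From these values, limma 3.58.1 under R 4.3.3 (lmFit, eBayes with trend) compared the groups given by the sample labels on log2(TPM + 1), with all 9 libraries in the fit and no block. Differences on this scale understate changes of low genes. Level sums and figures were made in Python 3.11.15. A 2-sided exact permutation of 3 against 3 libraries cannot reach p = 0.05 and was not used. The self-test on simulated data recovered most planted changes with few false calls. All planted changes were larger than 2-fold and lay in genes above a set level in medium. Recovery close to the 2-fold threshold, or in low genes, was therefore not tested.

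Members, lists and motifs were chosen with earlier results of these data known. Genes named were, per comparison, the 6 largest called changes of Mrpl and of Mrps genes with a group mean of at least 10 TPM, the members against the majority, the 10 smallest p against medium, the 3 highest and lowest levels, 7 members of special role, and the 2 largest rises and falls of each partner list, with all regulators. Alternatives varied the pseudocount, filter, scaling, variance trend, libraries and threshold. Protein sequences were not analysed here. The values of 1 marker gene are not reported here.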

Additional observations from a re-analysis of the deposited data

How the results depend on the processing

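Under the alternatives, no median over the members changed sign and no call of a member turned to the opposite direction. Members called higher with stimulation numbered 28, 17 with a pseudocount of 5 and 70 without the 2-fold threshold, which also gave 1 called lower. Without that threshold, 73 were lower with TRAIL against stimulated cells, and 2 higher and 20 lower against medium. The median log2 difference with stimulation was 1.01 after median-of-ratios scaling and 0.71 without medium replicate 2 and stimulated replicate 1, left out after the data were seen. With TRAIL it was -0.93 at a pseudocount of 5. Against medium it was -0.0091 after median-of-ratios scaling and -0.013 after quantile normalization. The median of all genes tested turned from -0.15 to 0.04 with stimulation, and from 0.01 to -0.05 with TRAIL, after quantile normalization. The summed TPM was 2367 in medium and 2378 with TRAIL after median-of-ratios scaling, and 2407 with TRAIL after quantile normalization. Leaving out each library in turn gave 23 to 32 members called higher with stimulation and 39 to 46 called lower with TRAIL. The medians then ran from 0.78 to 0.92, from -1.13 to -1.0 and from -0.27 to -0.15 in the 3 comparisons.

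Of the 28 and 44 calls, 15 and 34 held under all 19 alternatives. The same sign under all of them was found for 75, 77 and 49 of the 78 members in the 3 comparisons. The labels do not say whether replicate numbers pair the libraries. Deviations from group means correlated at -0.31 to 0.29 across genes between same-numbered libraries, and at -0.38 to 0.29 between differently numbered ones. With 3 libraries a group, such correlations cannot tell whether same-numbered libraries shared a mouse or a batch. With the replicate block, 28 members were called higher with stimulation and 44 lower with TRAIL, and no call count of the members changed. Depth is unknown, so the error rests on 3 libraries a group.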
